A study of Mus musculus with 18 samples.

Results

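Cytosolic ribosomal proteins are the protein parts of the ribosomes that work outside mitochondria. They were taken here as the protein-coding genes whose symbol begins with Rpl or Rps followed by a digit, together with Rplp0, Rplp1, Rplp2 and Rpsa, and without the Rps6k kinases. The rule found 93 of the 56748 genes in the count table, and 87 of the 93 passed the filter on low counts and were tested.

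The study treated RAW 264.7 cells, a mouse macrophage line, with TBHQ (tert-butylhydroquinone), a phenolic antioxidant added to foods, and asked how it changes the cells' response to a bacterial and a viral stimulus. The control cells were left untreated, and the TBHQ cells received TBHQ at 5 µM for 4 h. The LPS cells received lipopolysaccharide at 0.1 µg/mL for 12 h, and the PIC cells received Poly(I:C), a synthetic stand-in for viral double-stranded RNA, for 12 h at 20 µg/mL. The LPS + TBHQ and PIC + TBHQ cells had TBHQ first (4 h at 5 µM) and then the same dose of LPS or PIC for 12 h. Each of the 6 conditions had 3 libraries, which the study's methods call biological replicates, and poly(A) RNA was sequenced in bulk. The TBHQ cells were assessed at 4 h while the study places the other conditions in a 12 h design, so the agent and the time of harvest cannot be told apart in TBHQ against control. The TBHQ stock was dissolved in DMSO and the control had medium only, so TBHQ and its solvent cannot be told apart. The depth ranged from 14423390 to 18851626 counts in a library.

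A ribosome is built from a small subunit, which reads the mRNA, and a large subunit, which joins the amino acids. Each subunit needs nearly all of its proteins in equal numbers, and mammalian cells meet this need from single-copy genes whose mRNAs are abundant, short and begin with a run of pyrimidines, the TOP motif, through which mTORC1 and Larp1 control their translation. In macrophages, activation shifts both the use and the making of ribosomes, and single ribosomal proteins such as Rpl13a have further roles outside the ribosome.

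The label was checked against the data. Among the 93 members, 56 belonged by name to the large and 37 to the small subunit. Of these, 77 were core ribosomal proteins, 8 were paralogs or retrocopies of a core protein, 6 carried a pseudogene symbol but were listed as protein-coding, and 2 were not ribosomal proteins (Rps19bp1, a nucleolar protein that binds Rps19, and Rps23rg1). No count fell on Rpl36-ps4, Rpl10l, Rps18-ps6 or Rps23rg1 in any library, which allows up to 3 counts each by counting error. Rpl39l and Rpl3l, paralogs best known from testis and muscle, were not tested, with means of 0.0556 and 4.44 counts per library. The 8 macrophage markers summed to between 4401 and 5694 FPKM in every library, led by Lyz2 (3399 to 4647 FPKM). The markers of fibroblasts, epithelium, T cells, B cells and endothelium summed to at most 0.104 FPKM each, with 1 gene of each of the epithelial, T cell and B cell lists at 0 in all libraries.

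The members were among the most abundant mRNAs. Their median level was 234 FPKM over the 87 tested, 67 had a mean above 100 FPKM, and 2 had a mean above 1000 FPKM. The highest was Rplp1, a protein of the acidic stalk that recruits elongation factors, at 1816 FPKM, followed by Rps3a1 at 1155 FPKM, Rpl4 at 838 FPKM and Rpl8, which lies next to the catalytic centre, at 820 FPKM. The other stalk proteins were lower, with Rplp0 at 556 FPKM and Rplp2 at 170 FPKM. At the low end, Rpl21 (0.823 FPKM), Rpl24 (0.925 FPKM), Rpl29 (1.40 FPKM) and Rps10 (3.43 FPKM), all core proteins, stood far under the median.

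Many members have copies elsewhere in the genome. In 3 cases a pseudogene named after its member, and not listed as protein-coding, held more counts than the member. Rps2 had a mean of 486 counts while its pseudogene Rps2-ps10 had 10950, Rps10 had 125 against 1792 on Rps10-ps2, and Rpl21 had 44 against 481 on Rpl21-ps15. Of the copies listed as protein-coding, Rps18-ps5 had 2254 against 473 on Rps18. Copies under other names were not compared. In 56 of the 93 members, at least 50% of the transcript's 50-base words also occurred in another gene. The share was 98.7% in Rps27, whose retrocopy is Rps27rt, 86.7% in Rps18 and 84.6% in Rps6, but 7.86% in Rpl8, 7.58% in Rps20 and 2.96% in Rps3. How fragments that fit several genes were counted is not stated, so the level of such a member depends on where the counting placed them.

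Replicates differed little for most members. The standard deviation of log2 CPM (CPM are counts scaled to a common library total by TMM factors, and the spread was pooled over the 6 conditions) had a median of 0.0568 and was under 0.1 for 66 members. It was over 0.3 for 8 members, all with over 50% of their words shared. Rps27a, which is made as a fusion with ubiquitin, was one of them, at 724, 428 and 659 CPM in the control, 621, 483 and 201 in TBHQ, 451, 303 and 406 in LPS, and 344, 698 and 730 in PIC. It measured 573, 499 and 575 CPM in LPS + TBHQ and 247, 589 and 611 CPM in PIC + TBHQ. The libraries lay closest in LPS + TBHQ, and 1 of 3 stood far below the others in TBHQ, PIC and PIC + TBHQ. Rpl36al, a copy of the large-subunit protein Rpl36a with a mean of 43.4 counts, was another, and it did not pass the edgeR test in any of the 8 comparisons.

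Together the members took 4.58% ± 0.051 (SD, n = 3) of all counts in the control, with 4.63%, 4.59% and 4.53% in the 3 libraries. The share was 4.16%, 4.15% and 4.08% in TBHQ, 4.12%, 4.12% and 4.26% in LPS, and 3.94%, 4.16% and 3.86% in PIC. It was 3.90%, 3.92% and 4.03% in LPS + TBHQ and 3.90%, 3.91% and 3.96% in PIC + TBHQ. Every control library lay above every treated library, the LPS + TBHQ libraries lay below the LPS libraries, and the PIC + TBHQ libraries lay within the range of the PIC libraries. Of the PIC libraries, replicate 2 was the highest and replicate 3, the deepest library of the study, the lowest.

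**Figure D1:**
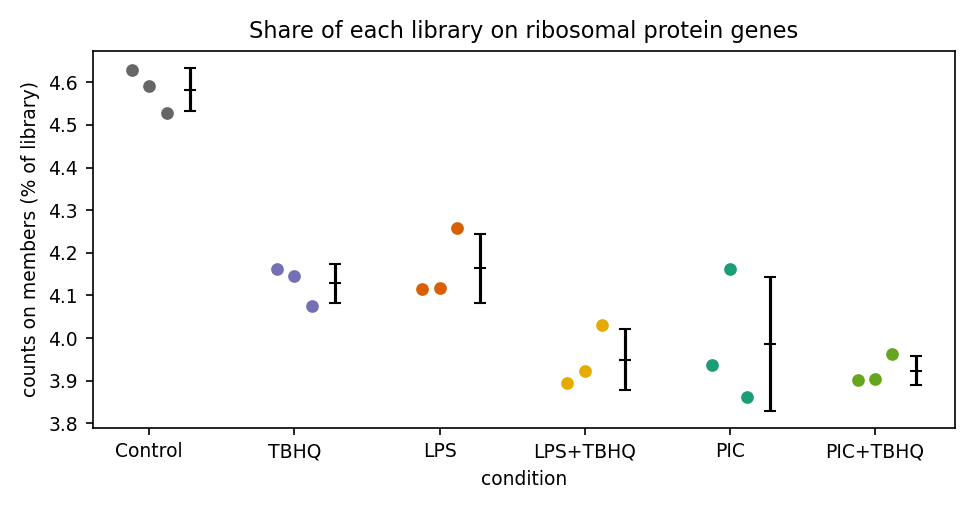
Share of each library's counts that fell on the 93 members (y axis, percent of the library, not starting at 0) in the 6 conditions (x axis). Points are the 3 libraries of a condition and bars are mean ± SD; the control libraries (4.53% to 4.63%) lay above all others, and the PIC libraries spread from 3.86% to 4.16%.

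A share of counts falls when other genes take more of the library, and in bulk RNA fewer cells and less RNA per cell cannot be told apart. How the libraries were scaled therefore set much of what follows. TMM factors, which take most genes as unchanged, averaged 1.06 in the control and in TBHQ, 0.999 in LPS, 1.02 in LPS + TBHQ, 0.913 in PIC and 0.958 in PIC + TBHQ. Scaled by total library size instead, the median log2 difference of all 13691 tested genes moved from -0.015 to -0.23 in PIC against control, from -0.0087 to -0.14 in PIC against LPS, and from -0.0040 to -0.092 in LPS against control. Members are given under TMM, and their value under total library size stands beside it where that scaling ended the call or turned the direction, to be read against these shifts.

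**Figure D2:**
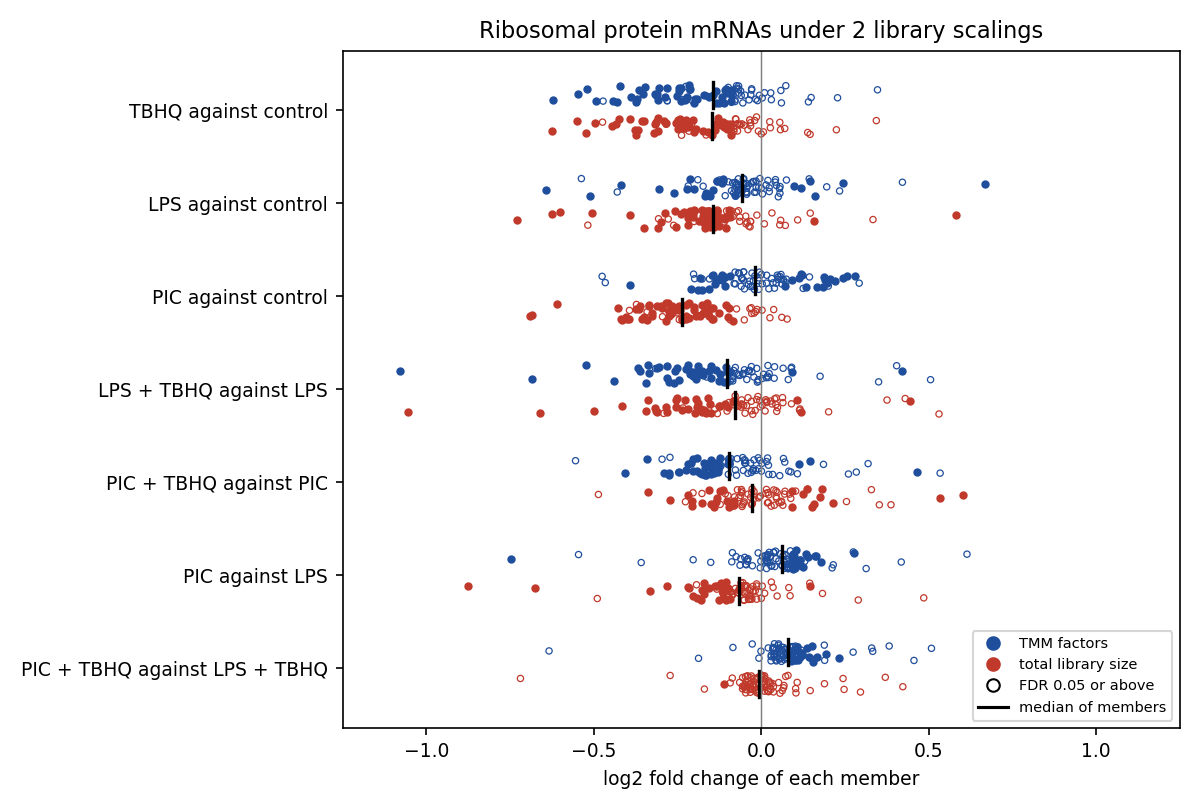
Log2 fold change of each tested member (x axis) in 7 comparisons (y axis) under TMM factors (blue) and total library size (red), with filled points for an edgeR adjusted p below 0.05 and black bars for the median over 87 members. The medians in TBHQ against control were -0.14 and -0.15, while those in PIC against LPS turned from 0.062 to -0.067 and those in PIC + TBHQ against LPS + TBHQ from 0.079 to -0.0060.

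TBHQ against control asked what the antioxidant alone did. Of 87 members, 47 were lower and 0 were higher in edgeR, beside 14.8% of all tested genes lower and 14.2% higher, and the members' median log2 fold change was -0.14. At an unadjusted p below 0.05 there was 1 member on the higher side, and DESeq2 called 0 higher and 45 lower. The counts were 25 of 52 for the large and 22 of 35 for the small subunit. With total library size, 48 members were lower and 0 higher, beside 15.1% lower and 13.9% higher of all genes. A fit with an offset for mRNA length, a setting chosen after the data were seen, gave 24 lower and 16 higher, at a median of -0.037. The shares of all genes called with this offset or by DESeq2 are not given, here or below. Counts of members under these settings therefore stand without that background.

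Rpl38 (ENSMUSG00000057322, chromosome 11), a small protein of the large subunit known for its part in translating Hox mRNAs, fell the most of all called members. It measured 176, 152 and 164 CPM in the control libraries and 108, 115 and 97.6 CPM in the TBHQ libraries. No TBHQ library reached a control library, and the log2 difference was -0.62 ± 0.09 (SE, n = 3 per condition) with an edgeR adjusted p of 1.4e-07. Rpl22l1 (ENSMUSG00000039221, chromosome 3), the paralog that can take the place of Rpl22, measured 68.1, 71.7 and 70.0 CPM in the control and 47.0, 46.6 and 49.8 CPM in TBHQ. Its difference of -0.55 ± 0.04 (edgeR adjusted p = 4.8e-11, no overlap) exceeded that of Rpl22 itself, which was -0.24 ± 0.03 (edgeR adjusted p = 6.3e-05), although the difference between the 2 genes was not tested.

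Rps29 (ENSMUSG00000034892, chromosome 12), a zinc-binding protein of the small subunit, measured 185, 163 and 171 CPM in the control and 126, 125 and 111 CPM in TBHQ. Again all TBHQ libraries were below all control libraries, at -0.52 ± 0.08 (edgeR adjusted p = 6.0e-07). Rps3, which lines the entry of the mRNA channel and shares few words with other genes, measured 1463, 1484 and 1432 CPM in the control and 1163, 1202 and 1243 CPM in TBHQ. No TBHQ library reached a control library, with a log2 difference of -0.28 ± 0.03 (edgeR adjusted p = 5.9e-08). Rpl5 and Rpl11, which carry a small ribosomal RNA into the large subunit and bind Mdm2 when ribosome building fails, differed in outcome. Rpl5 measured 1008, 1014 and 977 CPM in the control and 826, 815 and 774 CPM in TBHQ, a fall that passed the test (-0.31 ± 0.03, edgeR adjusted p = 1.3e-08), while Rpl11 measured 670, 626 and 616 CPM against 604, 626 and 589 CPM, which overlapped (-0.07 ± 0.05, edgeR adjusted p = 0.15).

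Of the members often used as reference genes, Rpl32 and Rpl13a passed the test and Rps18 and Rplp0 did not. Rpl32 was lower by -0.23 ± 0.04 and Rpl13a by -0.24 ± 0.05, both without overlap (edgeR adjusted p = 2.2e-05 and 0.00027). Rps18 was at -0.09 ± 0.15 (edgeR adjusted p = 0.545), on an entry with a mean of 473 counts. Rps18-ps5, a member that shares words most with Rps18, had a mean of 2254 counts and was picked out after its values were seen. It measured 176, 156 and 155 CPM in the control and 122, 128 and 122 CPM in TBHQ, without overlap. The stalk proteins did not pass the test, with Rplp0 at 0.03 ± 0.04, Rplp1 at -0.06 ± 0.04 and Rplp2 at -0.04 ± 0.03 (edgeR adjusted p from 0.28 to 0.60). Rpsa, the laminin receptor precursor, was at -0.03 ± 0.02, and Rps6, the substrate of the S6 kinases, was lower by -0.10 ± 0.01 (edgeR adjusted p = 0.012) under both scalings but turned to 0.01 with an offset for mRNA length. Rps19, whose loss causes Diamond-Blackfan anaemia, was lower by -0.12 ± 0.04 and Rpl3 by -0.12 ± 0.03, both without overlap and with edgeR adjusted p = 0.013 and 0.0066.

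After TBHQ the medians were lowest among the shortest mRNAs, in the members and in other genes, though the members' medians did not rise steadily with length. The tested members had a median length of 712 bases, against 2747 bases for the other tested genes with a length. Among mRNAs of up to 500 bases, 17 members had a median of -0.22 and 96 other genes a median of -0.19, and 39.6% of those other genes were lower. From 600 to 800 bases the members' median lay above that of the others, at -0.099 for 22 members and -0.12 for 298 others. In the remaining classes the members lay lower, at -0.21 against -0.14 from 500 to 600 bases, -0.14 against -0.11 from 800 to 1000 bases, -0.11 against -0.060 from 1000 to 1500 bases and -0.086 against -0.025 from 1500 to 2500 bases. Above 2500 bases, 6257 other genes had a median of 0.033, with 13.0% lower, and the 1 member was lower, at -0.20. The count of lower members in TBHQ against control depended on the offset for length, as given above, and the cause of the differences between length classes was not tested.

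**Figure D3:**
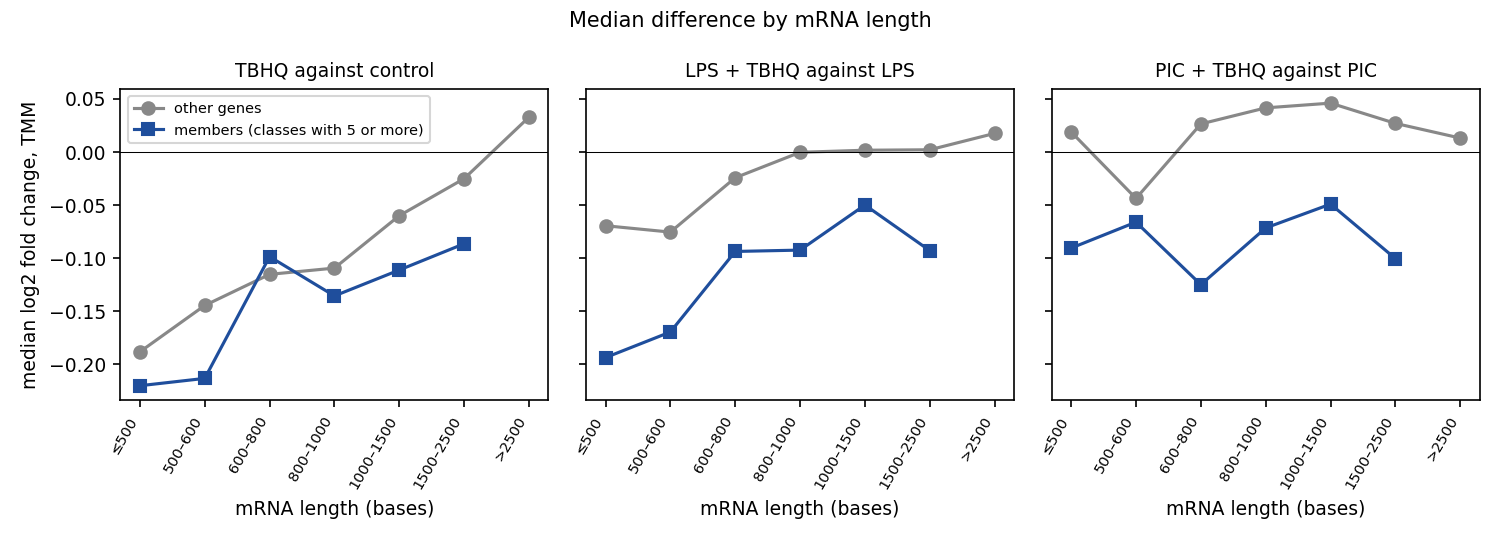
Median log2 fold change under TMM (y axis) by class of mRNA length in bases (x axis) for members (blue squares, classes with at least 5 members) and other tested genes (grey circles) in the 3 comparisons with TBHQ. In TBHQ against control both fell in short mRNAs (-0.22 and -0.19 up to 500 bases), while in PIC + TBHQ against PIC the members lay below the other genes in each class drawn (-0.12 against 0.026 from 600 to 800 bases).

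LPS against control asked what the bacterial stimulus did after 12 h. There were 6 members higher and 18 lower, beside 24.0% of all genes higher and 24.1% lower, and the median was -0.056. With total library size the split became 2 higher and 53 lower, beside 17.9% and 33.3% of all genes, at a median of -0.14 against an all-gene shift of -0.092. Without LPS replicate 2, 10 were lower and the median was -0.028. With the offset for length 40 were lower.

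Rpl13a (ENSMUSG00000074129, chromosome 7), which interferon-gamma releases from the ribosome of myeloid cells into a complex that silences inflammatory mRNAs, rose most among the members without overlap. It measured 60.1, 62.7 and 63.9 CPM in the control and 71.1, 74.9 and 75.4 CPM in LPS. Every LPS library was above every control library, by 0.25 ± 0.04 (edgeR adjusted p = 6.5e-05) under TMM and by 0.16 (edgeR adjusted p = 0.0071) under total library size. Rps20 was higher by 0.16 ± 0.02 and Rps13 by 0.15 ± 0.02 (edgeR adjusted p = 0.00025 and 0.0017), as were Rpl9 by 0.12 ± 0.02 and Rplp0 by 0.10 ± 0.04. Under total library size these 4 were at 0.07, 0.06, 0.03 and 0.01, and none of the 4 passed the test. Rps27rt had the highest estimate of the 6 (0.67 ± 0.41), with overlapping libraries.

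Rps27l (ENSMUSG00000036781, chromosome 9) is a paralog of Rps27 that p53 induces. It fell most among the called members with a mean of at least 50 counts and no overlap. It measured 163, 154 and 152 CPM in the control and 121, 135 and 124 CPM in LPS. The groups stood apart, at -0.31 ± 0.06 (edgeR adjusted p = 2.6e-06). Its parent Rps27 measured 330, 293 and 307 CPM in the control and 291, 309 and 316 CPM in LPS, which overlapped (-0.02 ± 0.06). Rpl27 was lower by -0.22 ± 0.09, Rpl7l1, a paralog that works in building the large subunit, by -0.21 ± 0.03, and Rpl10a, of the stalk where spent tRNA leaves, by -0.20 ± 0.02 (edgeR adjusted p from 3.1e-06 to 9.0e-05). Rpl3, Rps3 and Rpl13 were lower by -0.13 ± 0.04, -0.11 ± 0.05 and -0.14 ± 0.07, all without overlap.

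PIC against control asked the same of the double-stranded RNA mimic. The members split, and the split hung on the scaling. Under TMM, 16 were higher and 15 lower, beside 28.6% and 30.1% of all genes, at a median of -0.019. Under total library size 0 were higher in edgeR, also at an unadjusted p below 0.05, and 66 were lower, beside 17.4% higher and 48.5% lower of all genes, and DESeq2 with its own size factors gave 20 higher and 9 lower. The members' median of -0.24 with total library size stood beside the all-gene median of -0.23. Without PIC replicate 3, 24 were higher and 3 lower under TMM.

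Rps13, an early binder of the small subunit's RNA, measured 334, 327 and 324 CPM in the control and 378, 402 and 414 CPM in PIC. The PIC libraries lay above the control under TMM, by 0.28 ± 0.04 (edgeR adjusted p = 8.0e-08), and total library size left 0.06 (edgeR adjusted p = 0.145). Rps27 measured 363, 410 and 338 CPM in PIC, above its 3 control libraries, by 0.26 ± 0.10 (edgeR adjusted p = 0.00038), and Rpl9 was higher by 0.24 ± 0.04 (edgeR adjusted p = 6.4e-08). Under total library size, Rps27 and Rpl9 were at 0.04 and 0.03 (edgeR adjusted p = 0.595 and 0.486).

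The stalk base protein Rplp0 measured 880, 865 and 822 CPM in the control and 957, 987 and 982 CPM in PIC. This was a rise of 0.19 ± 0.03 (edgeR adjusted p = 3.1e-06) without overlap under TMM, which turned to -0.03 (edgeR adjusted p = 0.42) under total library size. Rpl13a, Rps20, Rps25 and Rplp1 turned in the same way, from 0.18 ± 0.03, 0.19 ± 0.05, 0.13 ± 0.05 and 0.11 ± 0.05 under TMM to -0.03, -0.03, -0.08 and -0.11. For Rps25 and Rplp1 the negative values also passed the test (edgeR adjusted p = 0.043 and 0.013).

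Among the lower members, Rps27l measured 124, 126 and 109 CPM in PIC, below each control library. It was lower by -0.39 ± 0.07 (edgeR adjusted p = 1.6e-08). Rpl10a was lower by -0.21 ± 0.04 and Rpl27 by -0.18 ± 0.03 (edgeR adjusted p = 9.5e-07 and 0.00092). Rpl3 at -0.12 ± 0.05 and Rps3 at -0.09 ± 0.03 were also lower without overlap. Neither passed the test without PIC replicate 3, where they were at -0.061 and -0.055. Rps3 also did not pass without PIC replicate 1 (-0.073) or Control replicate 2 (-0.082), with RLE factors (-0.075), with a mean of at least 50 counts (-0.068), or with DESeq2 or limma. Total library size lowers the estimates of all genes in this comparison, so it was no test of these falls.

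LPS + TBHQ against LPS compared the levels after LPS with and without TBHQ first. Whether the response to LPS itself changed was not tested. Of 87 members, 42 were lower and 2 higher with TBHQ, beside 12.2% and 11.7% of all genes, and a median of -0.10. The 42 held 22 of the large and 20 of the small subunit. With total library size there were 35 lower and 3 higher, beside 10.2% and 15.1% of all genes. The members' medians lay below those of the other genes in each class of length with 5 or more members, for example -0.19 against -0.069 up to 500 bases and -0.093 against 0.0021 from 1500 to 2500 bases, and the offset for length gave 31 lower and 6 higher, at a median of -0.054.

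Rpl26, a protein at the exit of the peptide tunnel with a low count here, measured 14.7, 12.4 and 12.9 CPM in LPS and 8.57, 9.64 and 9.60 CPM in LPS + TBHQ. The libraries did not overlap, at -0.52 ± 0.09 (edgeR adjusted p = 0.0015). Rps29 measured 163, 175 and 188 CPM in LPS and 127, 136 and 125 CPM in LPS + TBHQ, a difference of -0.44 ± 0.07 (edgeR adjusted p = 1.2e-05). Rpl22l1 measured 68.1, 69.2 and 65.1 CPM against 51.6, 53.0 and 52.2 CPM. For these 3 genes each library with TBHQ was below each library without it, and Rpl22l1 was at -0.37 ± 0.03 (edgeR adjusted p = 2.9e-07).

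Rpl13a, higher with LPS alone, measured 57.0, 59.8 and 58.7 CPM in LPS + TBHQ, under all 3 LPS libraries (-0.34 ± 0.03, edgeR adjusted p = 1.5e-06). Rpl23, which binds Mdm2 as Rpl5 and Rpl11 do, and Rpl5 itself were lower by -0.34 ± 0.04 and -0.31 ± 0.04 (edgeR adjusted p = 1.0e-08 and 2.1e-08). Rps27l was lower by -0.18 ± 0.05 and Rps3 by -0.19 ± 0.05. The 2 higher members were Rpl8, at 1080, 1095 and 1149 CPM in LPS + TBHQ against 1059, 1007 and 1051 CPM in LPS (0.09 ± 0.04, edgeR adjusted p = 0.030), and Rps2, picked out after its values were seen, whose libraries overlapped. No member was higher when either LPS replicate 2 or LPS+TBHQ replicate 3 was left out, 1 was without LPS replicate 1 or LPS+TBHQ replicate 1, and 4 were without LPS replicate 3.

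PIC + TBHQ against PIC made the same comparison of levels for the other stimulus, and a change in the response to PIC was not tested. Here 33 members were lower and 3 higher, beside 15.5% and 15.8% of all genes, at a median of -0.095, and 20 of the lower members belonged to the large and 13 to the small subunit. The scaling moved this result, since total library size gave 17 lower and 11 higher, beside 10.5% and 24.8% of all genes, at a median of -0.026 while that of all genes was 0.078. With the offset for length 36 were lower and 5 higher.

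Rps27 (ENSMUSG00000090733, chromosome 3), a zinc-binding protein of the small subunit, measured 363, 410 and 338 CPM in PIC and 262, 288 and 288 CPM in PIC + TBHQ. All 3 libraries with TBHQ were lower, by -0.41 ± 0.09 (edgeR adjusted p = 1.5e-06) under TMM and -0.34 under total library size. Rpl23 measured 659, 664 and 583 CPM in PIC and 496, 512 and 497 CPM in PIC + TBHQ (-0.34 ± 0.06, edgeR adjusted p = 6.8e-09). Rpl31, which also sits at the tunnel exit, measured 657, 656 and 544 CPM against 490, 538 and 491 CPM. PIC replicate 3 was the lowest PIC library for all 3 genes and still lay above the libraries with TBHQ, and Rpl31 was at -0.29 ± 0.10 (edgeR adjusted p = 7.9e-06).

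Rpl5 and Rpl13a were both lower by -0.27, with SE 0.04 and 0.02 (edgeR adjusted p = 1.4e-07 and 3.4e-05), and Rps20 by -0.20 ± 0.05. For Rpl38 and Rps29 the PIC libraries, at 161, 159 and 114 CPM and at 182, 180 and 134 CPM, enclosed or met those of PIC + TBHQ. Their values of -0.09 ± 0.16 and -0.12 ± 0.15 did not pass the test. The higher members were Rpl13 (0.11 ± 0.05), Rplp2 (0.14 ± 0.08, with overlap) and Rpl10-ps3 (0.47 ± 0.17), with edgeR adjusted p = 0.035, 0.011 and 0.028. Their number was 1 without PIC replicate 1, 0 without PIC+TBHQ replicate 3 and 5 without PIC+TBHQ replicate 2.

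PIC against LPS compared the stimuli directly, and its direction was set by the scaling. Under TMM, 20 members were higher and 1 lower with PIC, beside 14.9% and 12.8% of all genes, at a median of 0.062, whereas under total library size 1 was higher and 28 lower, beside 7.19% and 31.9% of all genes, at a median of -0.067. The members' median thus lay above that of all genes under both scalings, which was -0.0087 and -0.14. Without PIC replicate 2, 8 were higher and the median was 0.036. The single lower member under TMM, Rps27rt, had overlapping libraries, was not called by DESeq2, and was not called without LPS replicate 2, while 2 members were lower without LPS replicate 3.

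Of the called members, Rps27 rose most, at 363, 410 and 338 CPM in PIC against 291, 309 and 316 CPM in LPS. Its retrocopy Rps27rt, with which it shares most of its words, measured 63.8, 49.3 and 55.4 CPM in PIC and 94.8, 134.5 and 53.1 CPM in LPS. Rps27a had a higher estimate (0.61 ± 0.39) that did not pass the test. The groups did not overlap for Rps27 (0.28 ± 0.09, edgeR adjusted p = 0.00048), and it was the member that also passed the higher side under total library size (0.15, edgeR adjusted p = 0.047). Rps25, needed for initiation at some internal ribosome entry sites, was higher by 0.18 ± 0.07 and Rpl27a by 0.17 ± 0.02 (edgeR adjusted p = 0.00049 and 8.5e-05), and under total library size they were at 0.05 and 0.04. Rplp0, Rps6, Rpl8, Rpl9 and Rpl23 were higher by 0.09 ± 0.03, 0.10 ± 0.03, 0.10 ± 0.04, 0.12 ± 0.04 and 0.12 ± 0.07 under TMM and turned to -0.04, -0.03, -0.03, -0.01 and -0.01 under total library size. Rpl7l1, lower with LPS, was higher in PIC than in LPS by 0.16 ± 0.02 (edgeR adjusted p = 0.0022) under TMM and by 0.03 (edgeR adjusted p = 0.578) under total library size.

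After TBHQ, the same contrast gave 17 members higher and 0 lower in edgeR, beside 11.9% and 8.39% of all genes, at a median of 0.079. At an unadjusted p below 0.05, 36 members were higher and 0 were lower, and DESeq2 called 14 higher and 0 lower. With total library size 0 were higher and 1 lower, beside 6.5% and 18.9% of all genes (1 higher at an unadjusted p below 0.05). The median there was -0.0060, so its sign again depended on the scaling. It was 0.075 with RLE and 0.050 with upper quartile factors. The 17 became 4 or 9 without LPS+TBHQ replicate 1 or 2, 9, 11 or 6 without PIC+TBHQ replicate 1, 2 or 3. With the offset for length 2 were higher, at a median of 0.018.

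Rps29 measured 142, 156 and 158 CPM in PIC + TBHQ and 127, 136 and 125 CPM in LPS + TBHQ. The libraries stood apart under TMM (0.23 ± 0.06, edgeR adjusted p = 0.019), and total library size gave 0.15 (edgeR adjusted p = 0.14). Rps21 was higher by 0.19 ± 0.03 and Rpl22l1 by 0.17 ± 0.03 (edgeR adjusted p = 0.011 and 0.013), with 0.11 and 0.08 under total library size. Rplp2, Rps19 and Rps3 were higher by 0.15 ± 0.02, 0.12 ± 0.04 and 0.11 ± 0.03, and under total library size stood at 0.07, 0.04 and 0.02.

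The difference of the TBHQ effect between PIC and LPS was tested itself, since a fall that passes in one stimulus and not in the other shows no difference. In edgeR 0 members were higher and 0 lower, beside 0.825% and 1.01% of all genes, with 9 and 5 members at an unadjusted p below 0.05, and DESeq2 called 0 higher and 2 lower. Total library size gave 1 higher and 0 lower (23 and 1 at an unadjusted p below 0.05), beside 1.72% and 0.541% of all genes. The median over members was 0.031 under TMM and 0.075 under total library size, where that of all genes was 0.053.

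Across the conditions, some members kept to a pattern of levels in all 6 that single comparisons do not show. Rpl22l1 had its lowest mean in TBHQ, then LPS + TBHQ, then PIC + TBHQ, and each of these 9 libraries (46.6 to 60.5 CPM) lay below the 9 without TBHQ (63.4 to 71.7 CPM). Rpl5 also had its 9 libraries with TBHQ below the others, with 739 to 826 CPM in the libraries with TBHQ and 917 to 1014 CPM in those without. These values are under TMM. Under total library size the Rpl5 libraries overlapped, with TBHQ replicates 1 and 2 above PIC replicate 3. For Rpl22l1, the highest library with TBHQ and the lowest without it then nearly met. Rps27l instead was highest in the control, and its 12 stimulated libraries (108 to 135 CPM) overlapped with TBHQ alone (130 to 141 CPM) but not with the control (152 to 163 CPM). Under total library size the stimulated libraries lay below TBHQ alone too. Rps19bp1, which is no ribosomal protein, lay between 31.8 and 38.1 CPM in all 18 libraries and did not pass the edgeR test in any of the 8 comparisons.

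**Figure D4:**
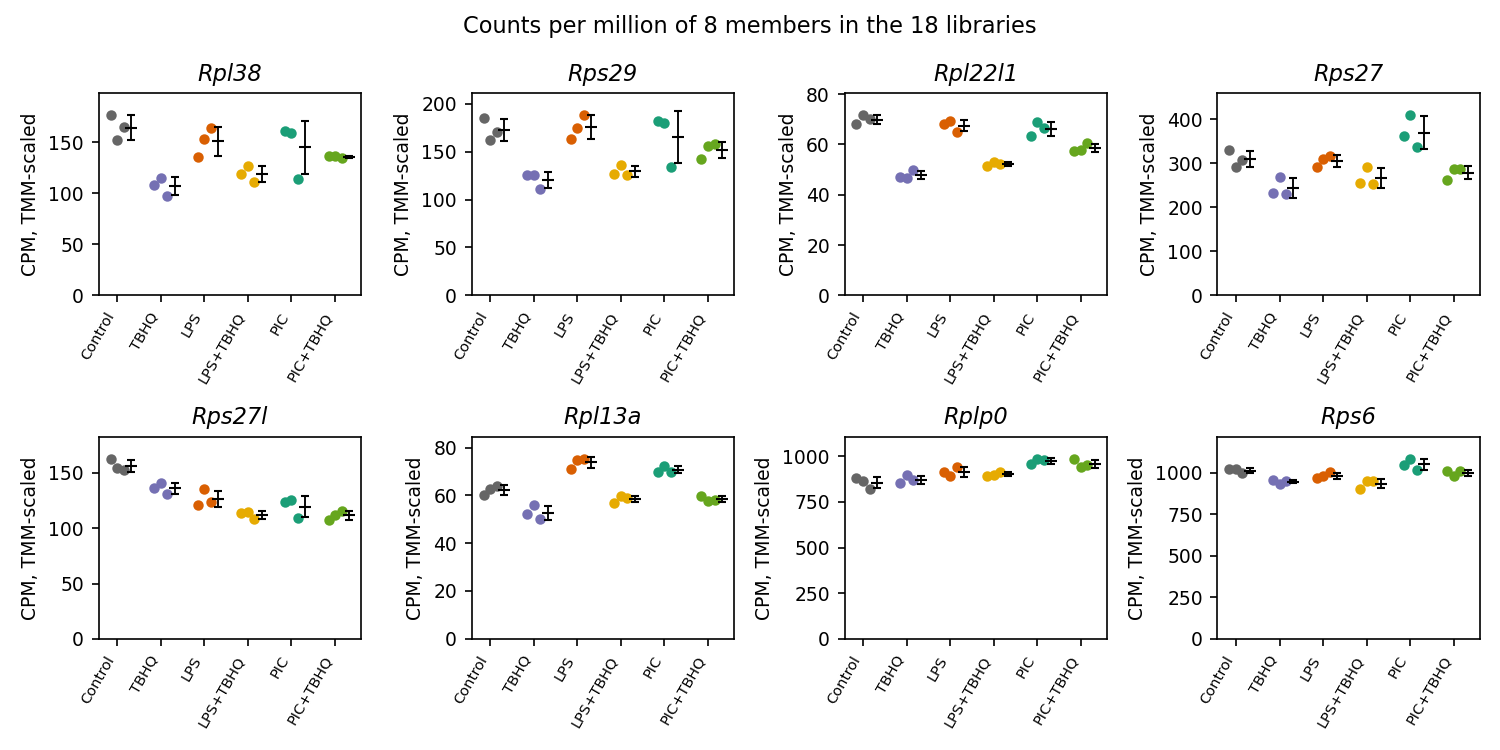
CPM scaled by TMM factors (y axis, from 0) of 8 members in the 18 libraries by condition (x axis), with points for libraries and bars for mean ± SD. The 9 libraries with TBHQ lay at 46.6 to 60.5 CPM for Rpl22l1, below the 9 without it (63.4 to 71.7 CPM), and Rplp0 rose from 822 to 880 CPM in the control to 957 to 987 CPM in PIC, a rise that turned to -0.03 on the log2 scale under total library size.

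Ribosomal protein mRNAs are known for the TOP motif, so their starts were read from RefSeq promoter windows of GRCm38.p6. A tract was searched on the gene's strand as C at the annotated start followed by at least 4 pyrimidines. Of 79 starts of the 67 members with an entry, 14 (17.7%) had it, against 823 of 32851 starts (2.51%) of all genes, and within 5 bases of the start 33 (41.8%) had it, against 18.3%. Each window below shows 10 bases before the start and 20 from it. The first 9 are examples of starts with the tract, in capitals, picked after the values were seen. The last 3 are members named above without it at the annotated start. Of these, Rpl22l1 and Rpl13a had a tract within 5 bases of the start and Rpl23 did not.
Rpl38: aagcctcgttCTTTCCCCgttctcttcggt
Rps27: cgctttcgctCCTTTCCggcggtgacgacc
Rps27rt: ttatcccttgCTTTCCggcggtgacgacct
Rps6: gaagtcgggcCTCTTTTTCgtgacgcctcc
Rps18: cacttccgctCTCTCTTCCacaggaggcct
Rplp2: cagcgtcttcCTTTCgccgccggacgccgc
Rps10: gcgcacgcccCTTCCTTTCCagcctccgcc
Rpl35: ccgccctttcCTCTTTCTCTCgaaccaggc
Rpl15: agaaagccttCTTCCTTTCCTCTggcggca
Rpl22l1: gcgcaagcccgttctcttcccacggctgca
Rpl13a: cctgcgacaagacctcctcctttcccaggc
Rpl23: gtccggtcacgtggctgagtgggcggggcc
Members with 1 annotated start were split by a tract at the start itself, so the group without it includes members with a tract within 5 bases. In TBHQ against control, 5 of 12 with the tract and 22 of 42 without it were lower, with medians of -0.086 and -0.14. In LPS + TBHQ against LPS, 6 of 12 and 22 of 42 were lower, with medians of -0.13 and -0.10. In PIC + TBHQ against PIC, 2 of 12 and 21 of 42 were lower, with medians of -0.053 and -0.12, and the difference between the groups was not tested. The shares of all tested genes lower in these 3 comparisons were 14.8%, 12.2% and 15.5%. A match is a description of these letters and says nothing of the start used in these cells.

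Splitting the members by shared sequence gave falls on both sides. In TBHQ against control, 22 of 32 tested members with under 50% of words shared were lower, and 25 of 55 with 50% or more. In LPS + TBHQ against LPS the counts were 21 of 32 and 21 of 55, and in PIC + TBHQ against PIC 16 of 32 and 17 of 55. Of the 315 listed pseudogenes of ribosomal proteins, 85 were tested. After TBHQ 4 were higher and 8 lower, beside 14.2% and 14.8% of all genes. After LPS 0 were higher and 7 lower (1 higher at an unadjusted p below 0.05, 0 in DESeq2), beside 24.0% and 24.1%. After PIC there were 8 and 5, beside 28.6% and 30.1%. In LPS + TBHQ against LPS there were 3 and 9, beside 11.7% and 12.2%. In PIC + TBHQ against PIC there were 5 and 6, beside 15.8% and 15.5%. These pseudogene counts and shares are under TMM, and the pseudogene counts under total library size are not given here.

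Fau and Rack1 are ribosomal proteins that the name rule leaves out. Fau, a fusion that yields a small-subunit protein, stood at 579 FPKM in the control and 535 in TBHQ (-0.11 ± 0.02, edgeR adjusted p = 0.026), and Rack1, a scaffold on the small subunit, at 269 and 245 FPKM (-0.14 ± 0.02, edgeR adjusted p = 0.0011). Of the 77 tested mitochondrial ribosomal proteins, 3 were higher and 13 lower after TBHQ, 4 and 38 after LPS, and 6 and 46 after PIC, at medians of -0.063, -0.15 and -0.23, beside 14.8%, 24.1% and 30.1% of all genes lower. Under total library size the lower counts were 13, 51 and 68 and the medians -0.066, -0.24 and -0.44, beside all-gene medians of -0.0032, -0.092 and -0.23. In LPS + TBHQ against LPS 7 were higher and 7 lower, and in PIC + TBHQ against PIC 15 and 4 (10 and 6, and 31 and 3, under total library size). The shares of all genes were 11.7% and 12.2%, and 15.8% and 15.5%. Under total library size they were 15.1% and 10.2%, and 24.8% and 10.5%. The median of the mitochondrial genes in PIC + TBHQ against PIC was 0.069, where that of the cytosolic members was -0.095, and under total library size these were 0.14 and -0.026.

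Other TOP mRNAs and translation factors moved on both sides. Of 20 genes, 7 were higher and 6 lower after TBHQ, 3 and 8 after LPS, 9 and 5 after PIC, 2 and 9 in LPS + TBHQ against LPS, and 2 and 11 in PIC + TBHQ against PIC. The shares of all genes higher and lower were 14.2% and 14.8% after TBHQ, 24.0% and 24.1% after LPS, and 28.6% and 30.1% after PIC. They were 11.7% and 12.2% in LPS + TBHQ against LPS, and 15.8% and 15.5% in PIC + TBHQ against PIC. All of these are under TMM. After TBHQ, Tpt1, a short TOP mRNA, was lower by -0.19 ± 0.02 while Pabpc1, the poly(A)-binding protein, was higher by 0.19 ± 0.01 and the elongation factor Eef2 by 0.12 ± 0.03 (edgeR adjusted p = 2.6e-06, 2.1e-06 and 0.0023).

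Of 40 ribosome biogenesis genes, 26 were higher and 0 lower after TBHQ in edgeR (0 lower at an unadjusted p below 0.05, and 25 and 0 in DESeq2), beside 14.2% and 14.8% of all genes, at a median of 0.18. Total library size also gave 26 and 0, and the offset for length 32 and 0. Polr1b, a subunit of the polymerase for ribosomal RNA, rose by 0.33 ± 0.02 (edgeR adjusted p = 3.8e-06) and Rrs1 by 0.22 ± 0.06 (edgeR adjusted p = 0.00022). After LPS 5 were higher and 23 lower, and after PIC 5 and 22 (1 and 29, and 1 and 35, under total library size), with the nucleolar protein Gnl3 at -0.44 ± 0.04 and -0.53 ± 0.02 and Myc, which drives ribosome building, at 1.95 ± 0.13 and 1.69 ± 0.12. Of all genes, 24.0% were higher and 24.1% lower after LPS, and 28.6% and 30.1% after PIC. Under total library size these shares were 17.9% and 33.3%, and 17.4% and 48.5%. TBHQ before the stimulus gave 15 higher and 3 lower against LPS and 13 and 2 against PIC (22 and 3, and 22 and 2, under total library size). Beside these stood 11.7% and 12.2% of all genes against LPS and 15.8% and 15.5% against PIC. Under total library size those shares were 15.1% and 10.2%, and 24.8% and 10.5%.

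Of 21 tested regulators of mTORC1 and of TOP mRNAs, 4 were higher and 3 lower after TBHQ, 5 and 6 after LPS, 5 and 9 after PIC, and 4 and 2 in each of the contrasts of TBHQ before a stimulus. Of all tested genes, 14.2% were higher and 14.8% lower after TBHQ, 24.0% and 24.1% after LPS, and 28.6% and 30.1% after PIC. With TBHQ first, the shares were 11.7% and 12.2% against LPS and 15.8% and 15.5% against PIC. Larp1, which binds the TOP motif, was higher after TBHQ by 0.32 ± 0.04 (edgeR adjusted p = 1.8e-09). Ddit4, an inhibitor of mTORC1, rose with LPS by 2.77 ± 0.06 and with PIC by 3.01 ± 0.03, and was lower by -1.38 ± 0.10 and -1.01 ± 0.09 when TBHQ came first. The treatments themselves were visible in their known targets, with Gclm, of glutathione synthesis, higher after TBHQ by 1.82 ± 0.03 and Nos2, the inducible nitric oxide synthase, higher by 2.35 ± 0.08 after LPS and by 2.88 ± 0.07 after PIC.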

How the data were processed

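RNA of RAW 264.7 cells was measured in 18 libraries, 3 for each of 6 conditions. The authors deposited raw counts per gene (alignment with HISAT2 2.0.5, counting with featureCounts 1.5.0-p3, StringTie 1.3.3b also named) and FPKM. The FPKM that the authors deposited equal counts over gene length and library total times 1 factor per library. The build is given as both GRCm38 and mm39, and the handling of strand and of fragments that fit several genes is not stated, so no positions of the files are printed.

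Counts were fitted in R 4.3.3 with edgeR 4.0.16 (filterByExpr, TMM, glmQLFit, glmQLFTest), 1 coefficient per condition over 18 libraries, and p-values were adjusted by Benjamini-Hochberg over all 13691 genes tested. A call is an adjusted p below 0.05 with no fold limit. SE is the replicate spread of log2 CPM (prior count 2), and FPKM are means over libraries. Tests were tested on simulated data. Tables and figures used Python 3.11.15, pandas 2.3.3, numpy 2.4.6 and matplotlib 3.10.9.

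Members and lists were chosen with earlier results of these data known. Named were, in each of 7 comparisons, the 3 highest and 3 lowest called members with a mean of at least 50 counts and no overlap between conditions, a fixed group (stalk proteins, Rpsa, reference genes, Rpl3, Rpl5, Rpl11, Rpl22, Rps3, Rps6, Rps19, Rps27, Rps27a), all paralogs and non-ribosomal members. Other members are named for their levels or because a small count holds them, after their values were seen. The result for 1 listed gene is not reported here.

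The alternatives were total library size, RLE and upper quartile factors, TMM without the members, DESeq2 1.42.0, limma 3.58.1 on log2 FPKM with a pseudocount of 1 or 0.1, no filter or a mean of at least 50 counts, only the compared conditions, named pseudogenes added to members, the replicate number as a block, other thresholds, an offset for mRNA length (loess, span 0.5, 11227 genes), and leaving out each library.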

Additional observations from a re-analysis of the deposited data

How the results depend on the processing

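Of 111 called values of named members, TMM without the members and pseudogenes and the replicate number as a block kept all 111. RLE factors kept 106, DESeq2 97, upper quartile factors 99, limma 89 (pseudocount 0.1) or 88 (pseudocount 1), the offset for length 85 and total library size 70. No filter kept 107, adding pseudogenes to the members 109, and the compared conditions only and a mean of at least 50 counts 103 each. With 1 library left out in turn, 119 of 666 such values no longer passed and 0 turned. The values below are counts of called members or log2 differences under each setting, and the cause of a change was not tested unless the setting itself removes genes or libraries.

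Under total library size, LPS against control had 2 higher and 53 lower, PIC against control 0 and 66, PIC + TBHQ against PIC 11 and 17, PIC against LPS 1 and 28, PIC + TBHQ against LPS + TBHQ 0 and 1, and the difference of the TBHQ effect 1 higher. The median of members turned to -0.067 in PIC against LPS and to -0.0060 in PIC + TBHQ against LPS + TBHQ. In PIC against control, Rpl13a turned to -0.034, Rplp0 to -0.028, Rplp1 to -0.11, Rps20 to -0.029 and Rps25 to -0.085. In PIC against LPS, Rpl23 turned to -0.013, Rpl8 to -0.032, Rpl9 to -0.0060, Rplp0 to -0.038 and Rps6 to -0.034. Upper quartile factors gave 24 lower in PIC against control, 5 higher in PIC + TBHQ against PIC, 9 higher in PIC against LPS and 7 higher in PIC + TBHQ against LPS + TBHQ, and RLE factors gave 9 lower in PIC against control.

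The offset for mRNA length, chosen after the data were seen, gave 16 higher and 24 lower in TBHQ against control, 40 lower in LPS against control, 27 lower in PIC against control, 6 higher in LPS + TBHQ against LPS, 5 higher in PIC + TBHQ against PIC, 3 lower in PIC against LPS, 2 higher in PIC + TBHQ against LPS + TBHQ and 3 lower in the difference of the TBHQ effect, where the median turned to -0.015. In TBHQ against control, Rpl9 turned to 0.039 and Rps6 to 0.0085.

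DESeq2 gave 9 lower in PIC against control, 1 higher in LPS + TBHQ against LPS, 0 lower in PIC against LPS and 2 lower in the difference of the TBHQ effect. With limma on FPKM and a pseudocount of 0.1, LPS against control had 11 lower, PIC against control 8 lower, LPS + TBHQ against LPS 0 higher, PIC + TBHQ against PIC 1 higher, PIC against LPS 0 lower and PIC + TBHQ against LPS + TBHQ 7 higher. A pseudocount of 1 gave 10 lower in LPS against control, 8 lower in PIC against control, 0 higher in LPS + TBHQ against LPS, 1 higher in PIC + TBHQ against PIC and 7 higher in PIC + TBHQ against LPS + TBHQ.

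With no filter there were 1 higher in TBHQ against control, 4 higher in LPS + TBHQ against LPS, 5 higher in PIC + TBHQ against PIC, 2 lower in PIC against LPS, 1 lower in PIC + TBHQ against LPS + TBHQ, and 4 higher and 2 lower in the difference of the TBHQ effect. A mean of at least 50 counts gave 9 lower in PIC against control, and adding the named pseudogenes to the members gave 6 higher in PIC + TBHQ against PIC. A fit of the compared conditions only gave 1 higher in TBHQ against control, 13 higher in PIC against LPS and 29 higher in PIC + TBHQ against LPS + TBHQ.

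At an FDR below 0.01, 11 were lower in LPS against control, 8 lower in PIC against control, 0 higher in LPS + TBHQ against LPS, 0 higher in PIC + TBHQ against PIC, 9 higher in PIC against LPS and 3 higher in PIC + TBHQ against LPS + TBHQ. With an FDR below 0.05 and a log2 limit of 0.2, 31 were lower in TBHQ against control, 2 higher and 8 lower in LPS against control, 5 higher and 2 lower in PIC against control, 1 higher and 24 lower in LPS + TBHQ against LPS, 1 higher and 11 lower in PIC + TBHQ against PIC, 1 higher in PIC against LPS and 1 higher in PIC + TBHQ against LPS + TBHQ. At the study's own threshold (FDR below 0.01 and a log2 limit of 2) 0 members were called in any comparison by edgeR, since no tested member differed by more than the -1.08 of Rpl36a-ps1 in LPS + TBHQ against LPS.

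Leaving out each library in turn gave 10 to 18 lower in LPS against control and 3 to 17 lower in PIC against control, where the median ran from -0.033 to 0.036 and was positive without PIC replicate 3 (0.036), Control replicate 2 (0.0061) or PIC replicate 1 (0.0014). It gave 0 to 4 higher in LPS + TBHQ against LPS, 0 to 5 higher in PIC + TBHQ against PIC, 8 to 27 higher and 0 to 2 lower in PIC against LPS, and 4 to 19 higher in PIC + TBHQ against LPS + TBHQ. The median of the difference of the TBHQ effect ran from -0.0077, without PIC replicate 3, to 0.054. The lower counts ran from 38 to 47 in TBHQ against control, 32 to 40 in LPS + TBHQ against LPS and 26 to 45 in PIC + TBHQ against PIC.

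The replicate number was tried as a block although no pairing is stated. Libraries of different conditions with the same number were close to uncorrelated once condition means were removed (r from -0.044 to 0.064 over 45 pairs, with 0 pairs over 0.1). No pairing by number was seen, though this does not exclude a batch shared by number. Replicate libraries differed by 2.49 to 4.61 times the counting variance per gene (chi-square per degree of freedom), so depth was not the limit for abundant members, while 5 tested members had a mean under 50 counts. Bulk mRNA levels say nothing of protein or translation.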
